A study of Mus musculus with 3 samples.

Results

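Solute carriers are membrane proteins that move nutrients, ions, nucleotides and metabolites across the plasma membrane and the membranes of organelles. They were examined here in CD4+ T cells activated under 3 cytokine conditions. Members were the genes on the array whose symbol starts with Slc and a digit, without the glucose, lactate, zinc and main amino acid carriers (Slc2a1, Slc2a3, Slc16a1, Slc16a3, Slc3a2, Slc1a4, Slc1a5, Slc38a2, Slc29a1 and all Slc7a, Slc30a and Slc39a genes). A gene was kept when its brightest probe set had a deposited intensity of at least 100 on 1 or more of the 3 arrays. This left 114 of 298 such genes, out of 18193 named genes on the array. Levels therefore chose the members and are given as a description.

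The cells were CD4+CD25- T cells of spleen and lymph nodes, taken from BALB/c females 6 to 8 weeks old. In all 3 conditions the mice lacked both Stat6, the factor through which IL-4 acts, and T-bet (gene Tbx21), the factor of Th1 cells, so no array shows cells with these genes intact. Cells were held for 2 days on plates coated with anti-CD3 at 5 µg/ml, with anti-CD28 at 1 µg/ml. The first condition had TGFβ alone, the next IL-6 plus IL-23, and the last IL-6 plus TGFβ, where TGFβ was used at 5 ng/ml and each interleukin at 10 ng/ml. The study compared them to find genes that go with IL-10 during polarization to Th17 cells, the helper cells that make IL-17. Each condition was measured on 1 Affymetrix array, so there are no replicates, no p-values, and every ratio describes a pair of arrays. The sources used here do not say whether cells of several mice were pooled.

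T cells that leave rest take up more amino acids, sugars, choline and nucleosides, and they export acid and lactate. Mitochondrial carriers of the Slc25 family connect the matrix with the cytosol, and Slc35 carriers bring nucleotide sugars into the Golgi and the endoplasmic reticulum for glycosylation. Carriers of the Slc4 and Slc9 families exchange bicarbonate and protons and set the pH of cells and organelles.

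Levels below are quantile-normalized intensities in arbitrary units, always listed as TGFβ first, IL-6/IL-23 next and IL-6/TGFβ last. Ratios are on the log2 scale unless called folds. Probe sets of different genes differ in brightness, so levels are compared within a gene only. Values under a floor of 64.5, taken from probe sets of tissue-restricted genes, were raised to it. Where 1 of the arrays sat at the floor, the ratio is a bound. The spread of a ratio between probe sets of the same gene (SD for 1 probe set) was 0.22 for IL-6/TGFβ over TGFβ, 0.29 for IL-6/TGFβ against IL-6/IL-23 and 0.30 for IL-6/IL-23 against TGFβ. It leaves out differences between cultures and arrays. Markers bore out T cells: 11 of 11 measured T cell identity genes were above the floor on every array. Above it on any array were 0 of 5 B cell genes and 0 of 3 erythroid genes. Most of the identity genes are shared by CD4 and CD8 T cells, so those do not check the CD4+ label. Cd4 itself, which is on that list, read 1333, 904 and 716. Of 5 CD8 T and NK cell genes 3, 3 and 2 were above the floor. These were Cd8a at 145, 119.7 and 80.2, Cd8b1 at 140, 174 and 104, and Eomes at 107 and 65.3 with TGFβ and IL-6/IL-23. Stat6 still read 259, 191 and 223 and Tbx21 190, 205 and 118. Which exons were deleted is not given in the labels, so these levels check nothing.

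The deposited arrays differed in brightness, with medians of 35.8, 17.8 and 28.1, so an intensity of 100 was easier to reach on the TGFβ array. It corresponds to normalized values of 69.6, 145 and 96.1. Of the 114 members, 112 reached 100 with TGFβ, 84 with IL-6/IL-23 and 97 with IL-6/TGFβ. Passing on the TGFβ array alone were 15 members, none of which was 2-fold apart in any comparison, and 2 (Slc13a3 and Slc17a6) passed on the IL-6/IL-23 array alone. Just inside the threshold, with their highest deposited intensity, lay Slc36a3 (102), Slc36a1 (105) and Slc6a2 (106). Slc16a13 (99.2), Slc5a6 (98.1) and Slc22a15 (97.8) lay just outside.

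Most solute carriers, like most genes, were less than 2-fold apart between the arrays. Higher and lower here mean a difference of 2-fold or more with the brighter array above the floor, and 99 of the 114 members met this in no comparison. The remaining 15 (13.2%, beside 11.9% of all 8559 named genes that meet the same intensity threshold) are plotted with their levels on each array. For IL-6/TGFβ over TGFβ 4 members were higher (3.51%) and 1 was lower (0.877%). Among those 8559 genes, 2.83% were higher and 2.13% lower. Over IL-6/IL-23, 6 members were higher (5.26%) and 4 lower (3.51%) with IL-6/TGFβ, beside 4% and 3.43% of all genes. For IL-6/IL-23 against TGFβ, 3 members were higher (2.63%) and 4 lower (3.51%), beside 3.53% and 3.42%. These shares are near those of all genes. Slc13a3 and Slc17a6 are among the 3 higher members of this last comparison and among the 4 lower ones of the comparison before it. Both entered through the IL-6/IL-23 array alone, so these calls followed from the way members were chosen. With membership at a mean deposited intensity of 100, the last comparison had 1 higher and the one before it 2 lower.

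The median ratio of the members was -0.04, -0.09 and -0.01 in these comparisons, beside 0.01, -0.03 and 0.04 over all genes. Scaling arrays to a common median left the IL-6/IL-23 counts much as they were (4 higher and 5 lower for IL-6/TGFβ against IL-6/IL-23, 3 and 5 for IL-6/IL-23 against TGFβ). For IL-6/TGFβ over TGFβ it gave 0 higher and 2 lower, since all 4 higher members lay between 1.02 and 1.12 and fell just short. The arrays share samples between comparisons, so a high value on 1 array enters 2 of the 3.

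**Figure D1:**
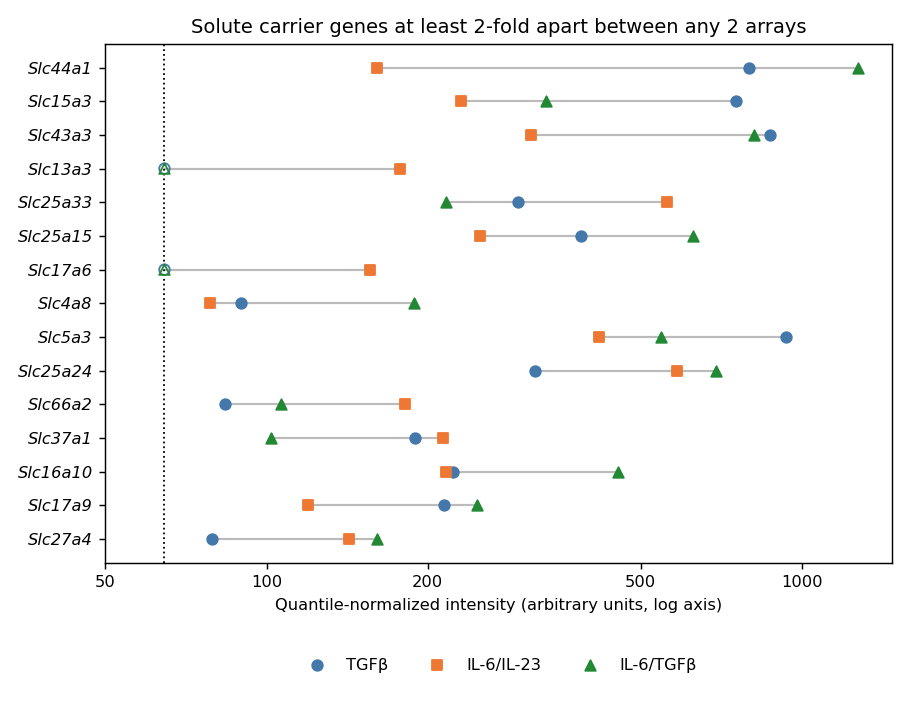
Quantile-normalized intensity (log axis) of the 15 solute carrier genes at least 2-fold apart between any pair of arrays, with 1 point per array and genes ordered by their largest ratio. The dotted line is the floor of 64.5 and open symbols are values at or under it; Slc44a1 runs from 161 to 1273.

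The member that differed most carries choline. Slc44a1 encodes the choline transporter CTL1, which supplies choline for the synthesis of phosphatidylcholine, the main membrane phospholipid. It read 796 with TGFβ, 161 with IL-6/IL-23 and 1273 with IL-6/TGFβ. Both arrays with TGFβ in the culture were high and the IL-6/IL-23 array was low, by 7.91-fold below IL-6/TGFβ (2.98) and 4.94-fold below TGFβ (-2.30). Between the TGFβ arrays the ratio was 0.68. The other 3 probe sets named Slc44a1 were under the floor on all 3 arrays, so 1 probe set carries this result, and averaging them put the gene under the floor on every array. These are bulk cultures, in which fewer cells with a transcript and less of it per cell cannot be told apart.

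The related gene Slc44a2, which encodes the choline transporter-like protein CTL2, read 2568, 2141 and 3666. Its level was highest with IL-6/TGFβ, by 0.51 over TGFβ and 0.78 against IL-6/IL-23, and was under 2-fold apart in all comparisons. Its further probe sets gave 0.32 and 0.43 over TGFβ, and 0.45 and 0.31 against IL-6/IL-23.

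Promoters from RefSeq (GRCm38.p6) were found for 11 of the 15 members at least 2-fold apart. The 250 bases before the start of the first transcript listed are shown for the 4 of these with the largest ratios, as the regulatory sequence next to the differing transcripts. Each is written 5′ to 3′ on the strand of the gene, and capitals mark matches to the motifs searched. Slc44a1 lies on the plus strand at chr4:53440163-53440412, a window that holds the gene's outermost annotated start. The others are on the minus strand: Slc13a3 at chr2:165473198-165473447, Slc25a33 at chr4:149774268-149774517 and Slc25a15 at chr8:22398622-22398871.
Slc44a1: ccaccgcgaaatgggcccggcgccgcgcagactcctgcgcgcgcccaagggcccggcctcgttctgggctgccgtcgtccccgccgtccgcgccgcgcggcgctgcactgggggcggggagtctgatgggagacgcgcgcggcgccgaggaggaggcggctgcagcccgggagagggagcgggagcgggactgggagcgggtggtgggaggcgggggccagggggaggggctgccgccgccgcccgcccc
Slc13a3: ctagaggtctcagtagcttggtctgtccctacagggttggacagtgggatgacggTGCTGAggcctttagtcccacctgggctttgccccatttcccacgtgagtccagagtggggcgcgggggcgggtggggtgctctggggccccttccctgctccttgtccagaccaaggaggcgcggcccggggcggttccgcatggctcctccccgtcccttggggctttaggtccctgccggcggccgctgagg
Slc25a33: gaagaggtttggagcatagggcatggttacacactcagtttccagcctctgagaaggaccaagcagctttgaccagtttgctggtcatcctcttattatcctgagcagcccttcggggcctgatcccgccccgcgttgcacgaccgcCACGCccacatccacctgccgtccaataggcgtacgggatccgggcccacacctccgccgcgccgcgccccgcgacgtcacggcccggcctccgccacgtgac
Slc25a15: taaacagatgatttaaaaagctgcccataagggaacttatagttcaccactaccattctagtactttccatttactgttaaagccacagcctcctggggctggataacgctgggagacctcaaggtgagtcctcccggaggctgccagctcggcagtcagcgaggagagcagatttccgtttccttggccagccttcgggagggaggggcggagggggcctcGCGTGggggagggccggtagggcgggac

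The motifs were read on both strands. They were the aryl hydrocarbon receptor core GCGTG (letters that also occur in the hypoxia response core), the AP-1 site TGANTCA, the Maf site TGCTGA, the palindromic Smad box GTCTAGAC and the STAT palindrome TTCNNNGAA. The Slc44a1 window is rich in G and C (81.2%) and held none of these letters. Slc25a15 held the receptor core 28 bases before the start and Slc25a33 held it 103 bases before. Slc13a3 held the Maf site, 195 bases before its start. Over the 11 promoters, 4 held the receptor core and 3 the Maf site, and 0 held the other motifs. Of 27025 promoter windows of the same length, 28.2% held the receptor core, 15.8% the Maf site, 6.87% the AP-1 site, 0.174% the Smad box and 7.18% the STAT palindrome. A match is a description of the letters, not of binding.

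Fatty acid, vitamin and nucleoside carriers made up the rest of the group around Slc44a1, which had 8 members. Slc27a4 encodes the fatty acid transport protein FATP4. It read 79.1, 142.5 and 161, so both arrays with IL-6 were above the TGFβ array, by 1.02 with TGFβ present and 0.85 with IL-23. It had 1 probe set, and scaling to a common median gave 0.90 in place of 1.02. The reduced folate carrier Slc19a1 read 1115, 1322 and 864, and the thiamine carrier Slc19a2 read 605, 772 and 489. Both were lowest with IL-6/TGFβ, at -0.61 and -0.66 against IL-6/IL-23, and their further readable probe sets gave -0.55 for Slc19a1 and -0.47 and -0.98 for Slc19a2. Slc25a32, which carries folate into mitochondria, was also lowest with IL-6/TGFβ (635, 764 and 432, -0.82 against IL-6/IL-23), but a further probe set gave -0.08. None of these 3 genes was 2-fold apart. The vitamin C carrier Slc23a2 read 253, 228 and 172, and the lysosomal nucleoside carrier Slc29a3 read 281, 277 and 218.

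Of 18 members numbered with the amino acid, peptide and transmitter carriers, 4 were 2-fold apart in some comparison, beside 11.9% of all genes. This count is too small to set against that share. Of the 4, Slc17a6 was chosen through the IL-6/IL-23 array alone, and Slc43a3 and Slc17a9 carry other substrates. Slc43a3, which despite its family encodes a purine nucleobase transporter, read 872, 312 and 814. The IL-6/IL-23 array was low and the other two were alike (-0.10), so the gene was 2.61-fold higher with IL-6/TGFβ than under IL-6/IL-23 (1.38) and 2.79-fold lower with IL-6/IL-23 than with TGFβ (-1.48). Slc43a3 had 1 probe set, so averaging probe sets could not change it. Its calls held under both other scalings and with the floor at the 99th percentile. The remaining settings could not have undone them. Slc17a9, the vesicular carrier that loads ATP into secretory vesicles, was also lowest with IL-6/IL-23, at 214, 119.5 and 247 (1.05 for IL-6/TGFβ against IL-6/IL-23). Its further probe set read 178, 109.5 and 201 (0.87). Scaling to a common median (0.97) or averaging the probe sets (0.96) put it just short of 2-fold.

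Slc15a3 encodes a lysosomal carrier of histidine and small peptides. It read 754 with TGFβ, 231 with IL-6/IL-23 and 333 with IL-6/TGFβ. Both arrays with IL-6 were low, 3.27-fold (-1.71) and 2.27-fold (-1.18) below TGFβ. Of 7 myeloid markers 2 were above the floor on any array. Mpeg1 was so with TGFβ (153, 21.9 and 25.7) and Csf1r with IL-6/TGFβ (63.2, 40.1 and 79.4). The summed level of the 7 was 284, 154 and 167, and the others (Lyz2, Cd14, Itgam, Adgre1 and Fcer1g) were under the floor on every array. The part of such cells in the Slc15a3 ratio was not tested. Its relative Slc15a4, also lysosomal, read 233, 160 and 200 and was under 2-fold apart.

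Slc17a6 encodes the vesicular glutamate transporter VGLUT2, known from neurons. It read 156 with IL-6/IL-23 and was under the floor with TGFβ (3.04) and IL-6/TGFβ (27.3), at least 2.42-fold higher with IL-6/IL-23 than on either. The further probe set for this gene gave the same picture, at 177 against 6.31 and 1.71. It entered only because of its level on the IL-6/IL-23 array, so that difference followed from the way it was chosen.

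Slc38a1, a sodium-coupled carrier of glutamine and other neutral amino acids, read 1891, 1350 and 1739, and -0.49 was its ratio farthest from 0. Slc38a9, a lysosomal carrier that reports arginine to mTORC1, read 119, 144 and 122. Slc6a6, the taurine carrier, read 500.2, 518 and 482, but a further probe set at 419, 745 and 334 was more than 2-fold lower with IL-6/TGFβ than under IL-6/IL-23 (-1.16). By the brightest probe set all 5 measured Slc38 members lay within 0.5 of 0 in each comparison. Of the further probe sets of Slc38a10, 1 gave 0.86 for IL-6/IL-23 against TGFβ where the brightest gave -0.38. Slc43a2, a carrier of branched and aromatic amino acids, read 194, 136 and 197 (0.54 for IL-6/TGFβ against IL-6/IL-23).

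Slc16a10, numbered with the monocarboxylate carriers, exports aromatic amino acids. It read 223, 217 and 453, so the IL-6/TGFβ array was about 2-fold above both TGFβ (1.02) and IL-6/IL-23 (1.07). A further probe set at 124, 73.2 and 140.2 gave 0.18 and 0.94, and scaling to a common median gave 0.90 and 0.93. The size of the difference over TGFβ thus rests on 1 probe set. Against IL-6/IL-23 this further probe set was close to the brightest, though a dimmer one near the floor gave -0.05. Slc13a3 encodes a sodium-coupled carrier of dicarboxylates such as succinate. It read 178 with IL-6/IL-23 and was under the floor on the other arrays (50.6 and 31.6), at least 2.76-fold higher. Like Slc17a6 it was chosen through that array alone. Its further probe sets were under the floor on every array, the brightest of them just so with IL-6/IL-23 (64.3). Averaging the probe sets lost the difference of 2-fold. The carnitine carrier Slc22a5 read 182, 202 and 191, and Slc10a3, a relative of the bile acid carriers, read 254, 305 and 282.

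Of 9 sugar and phosphosugar carriers, 0 were 2-fold apart between IL-6/TGFβ and TGFβ, beside 2.83% higher and 2.13% lower among all genes. Ratios over TGFβ were above 0 in 1 of 9 (11.1%, beside 51.4% of all genes), with a median of -0.37 beside 0.01. Of these members Slc2a6 and Slc2a9 were chosen through the TGFβ array alone, so a lower value elsewhere partly followed from the choice. Relative to all genes the median was lower under every scaling, by values from -0.38 to -0.37. Slc5a3, which takes up myo-inositol with sodium, read 934, 418 and 547. The TGFβ array was the high one, 2.24-fold above IL-6/IL-23 (-1.16) and 0.77 log2 units above IL-6/TGFβ. A further probe set, under the floor with IL-6/IL-23, gave -0.74 (a bound) and -0.68. Slc37a1, a glucose 6-phosphate and phosphate antiporter of the endoplasmic reticulum, read 189, 214 and 102. Here the IL-6/TGFβ array was low, at -1.07 against IL-6/IL-23 and -0.89 against TGFβ. Slc2a6, a lysosomal member of the glucose transporter family, read 124 with TGFβ and was under the floor on both arrays with IL-6, at least 1.93-fold lower. It was past 2-fold with Mbp out of the floor list (at least 2.67-fold on both), with the floor at the 90th percentile (3.20-fold with IL-6/TGFβ) and just so after median scaling (at least 2.00-fold).

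**Figure D2:**
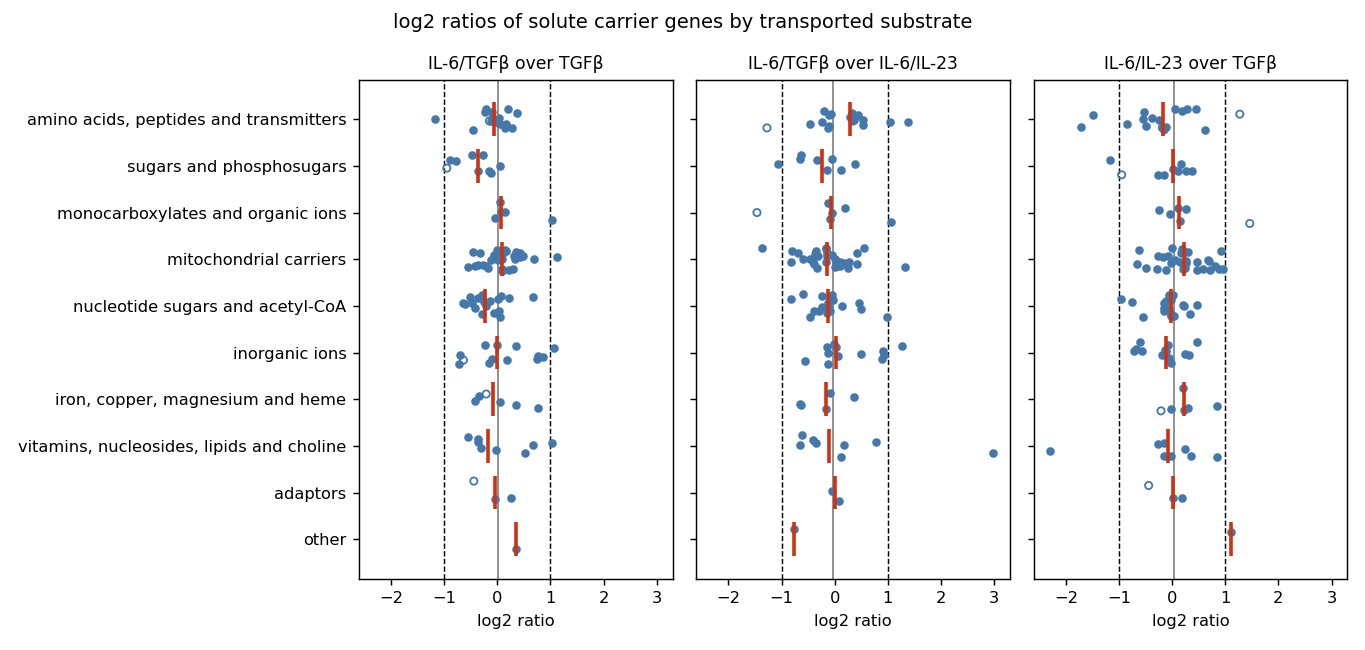
log2 ratios of solute carrier genes in 3 comparisons, by the substrate class of their family; each point is 1 gene, open points are bounds, red bars are group medians, the grey line is the median over all 8559 genes at that threshold and dashed lines mark 2-fold. Most points lie between the dashed lines, and Slc44a1 stands at 2.98 and -2.30.

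Mitochondrial carriers, taken here as all genes of the Slc25 family, were the largest group, with 31 members of 44 on the array. They are plotted by gene. The group follows the family number, so the membrane in which each member sits was not checked. For IL-6/IL-23 against TGFβ, 0 of 31 were 2-fold apart (3.53% of all genes were higher and 3.42% lower). By the brightest probe set, ratios were above 0 in 22 of 31 (71.0%, beside 54.3% of all genes), with a median of 0.22 beside 0.04. The excess over all genes was 0.18 after quantile normalization, 0.21 after median scaling and 0.18 without scaling. Where a gene had a readable second probe set, this mostly had the opposite sign. Slc25a36 gave 0.25 and -0.38, and Slc25a51 gave 0.25 and -0.18. Slc25a20 (0.29 and 0.43) and Slc25a30 (0.47 and 0.62) kept their sign. For these genes the direction thus depends on which probe set is read. Carriers of glutamate and aspartate were among those highest with IL-6/IL-23. Slc25a12 (AGC1), an aspartate and glutamate exchanger of the malate-aspartate shuttle, read 876, 1535 and 1174 (0.81 for IL-6/IL-23 against TGFβ). Its paralog Slc25a13 (citrin) read 172, 278 and 172 (0.69). Slc25a22, which imports glutamate with protons, read 182, 351 and 202 (0.95). The malate and oxoglutarate carrier Slc25a11, the other carrier of that shuttle, read 536, 799 and 720 (0.58).

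Nucleotide carriers of mitochondria differed from one another. Slc25a33 carries pyrimidine nucleotides into the matrix, and it read 295, 560 and 216. Its level was high with IL-6/IL-23, 2.59-fold above IL-6/TGFβ (-1.37 for IL-6/TGFβ against IL-6/IL-23) and 0.92 above TGFβ. Slc25a24, a calcium-regulated exchanger of ATP-magnesium for phosphate, read 317, 584 and 692. Both arrays with IL-6 were high, by 1.12 in the presence of TGFβ and by 0.88 in that of IL-23. A further probe set was under the floor with TGFβ, so its ratios are bounds, of at least 0.28 and 0.58. The abundant adenine nucleotide translocases exchange ADP for ATP. Slc25a5 read 12123, 11159 and 10056, Slc25a4 read 4683, 3348 and 4025, and these ratios lay between -0.48 and 0.27. Further bright Slc25a4 probe sets were closer to level for IL-6/IL-23 against TGFβ (0.0042 and 0.019). For IL-6/TGFβ against IL-6/IL-23 they gave -0.24 and -0.16, where the brightest gave 0.27. Slc25a5 had 8 probe sets, and 2 dimmer ones gave -1.51 and -1.96 for IL-6/IL-23 against TGFβ (4132, 1453 and 3285, and 3525, 906 and 2258) against -0.13 to 0.19 for the others. Which of them follows the transcript was not tested.

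Slc25a15, the ornithine carrier that links the mitochondrial and cytosolic parts of arginine metabolism, was among the 9 of 31 lower with IL-6/IL-23 than with TGFβ (-0.63). It read 387, 251 and 626, highest with IL-6/TGFβ, by 2.50-fold against IL-6/IL-23 (1.32) and 0.70 over TGFβ. A further probe set, under the floor with IL-6/IL-23, gave at least 0.65 (a bound) and 0.13. The phosphate carrier Slc25a3 read 6659, 7758 and 8371 (0.33 for IL-6/TGFβ over TGFβ), but a far dimmer probe set (94.0, 83.4 and under the floor) gave -0.54. Opposite signs of the 2 brightest probe sets were listed where a ratio was at least 0.5 from 0. Slc25a20, Slc25a32 and Slc25a39 met this in 1 comparison each. So did the Golgi sulfate donor carrier Slc35b2 (-0.07 and 0.55 for IL-6/IL-23 against TGFβ). Opposite signs with smaller ratios, as for Slc25a36, are not in this list. The citrate carrier Slc25a1, which exports citrate for lipid synthesis, read 455, 504 and 402. The mitoferrins Slc25a37 and Slc25a28, which import iron, read 235, 192 and 186 and 232, 262 and 262.

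**Figure D3:**
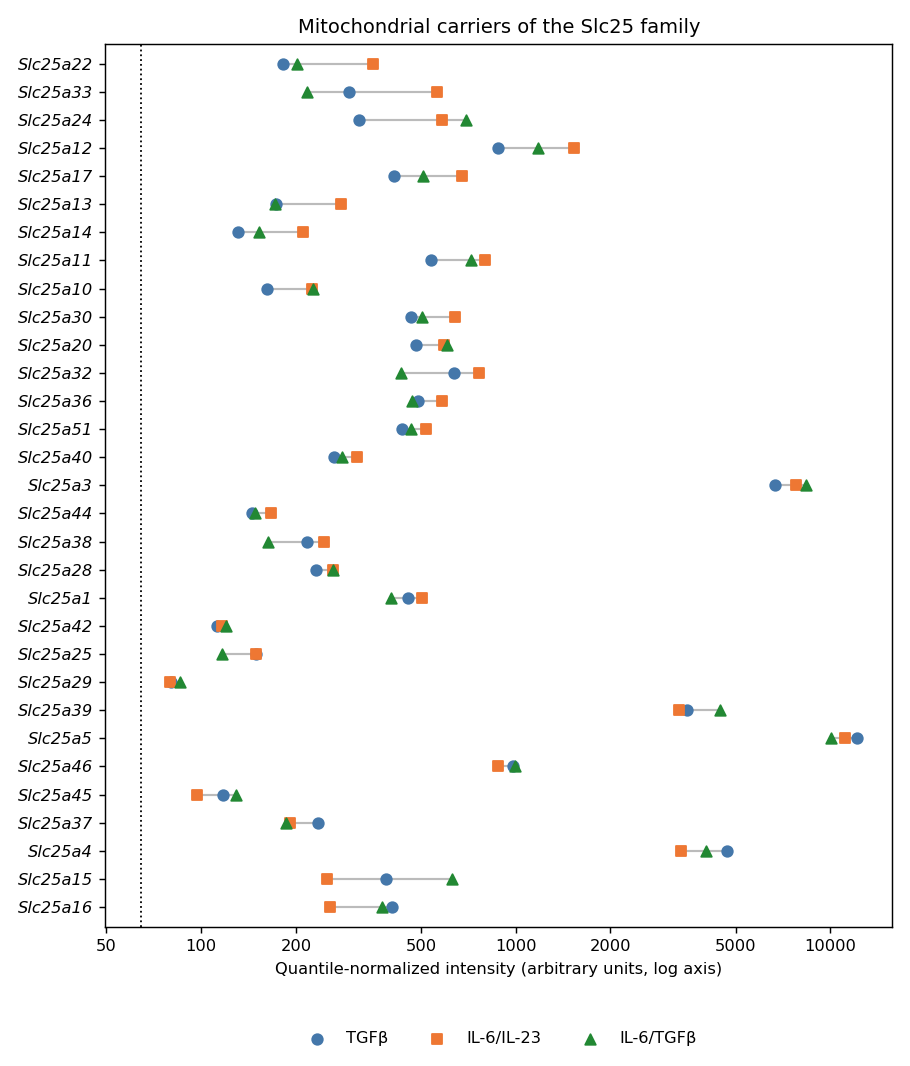
Quantile-normalized intensity (log axis) of the 31 members of the Slc25 family of mitochondrial carriers, grouped by family number, on each array. Genes are ordered by the ratio of IL-6/IL-23 against TGFβ, with the floor of 64.5 as a dotted line. Each gene is shown by its brightest probe set. Slc25a22 (0.95) heads the order, 22 of 31 carriers were brighter with IL-6/IL-23 than with TGFβ, and Slc25a15 and Slc25a16 are lowest in it.

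Carriers of inorganic ions numbered 13, and their families differed in order. All 3 measured Slc4 members, which carry bicarbonate or related ions, were highest with IL-6/TGFβ. Slc4a8, a sodium-driven chloride and bicarbonate exchanger that brings base into cells, read 89.4, 78.3 and 189 (1.08 over TGFβ and 1.27 against IL-6/IL-23). Slc4a2, the widespread chloride and bicarbonate exchanger AE2, read 242, 232 and 442 (0.87 and 0.93). Slc4a11, which is known as a proton or borate carrier and does not carry bicarbonate, read 380, 346 and 648 (0.77 and 0.90), and its further probe set gave 0.84 and 0.76. The TGFβ and IL-6/IL-23 arrays were alike for all 3, with ratios from -0.19 to -0.06. Their median over TGFβ exceeded that of all genes by 0.86 after quantile normalization and by 0.84 under both other scalings. The family was picked out after its values were seen, so this excess followed from the choice and describes these 3 genes only. All 13 ion carriers had a median of -0.01 over TGFβ, beside 0.01 over all genes. The further probe sets of Slc4a8 were under the floor on every array, and scaling to a common median gave 0.96 over TGFβ.

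Of 3 measured sodium and proton exchangers of the Slc9 family, Slc9a5 and Slc9a8 were chosen through the TGFβ array alone, so that their higher level there followed from the choice, and Slc9b2 was not. Slc9b2 read 360, 242 and 219, the Golgi exchanger Slc9a8 read 116, 72.2 and 71.2, and Slc9a5 read 100.2, 65.9 and a value under the floor. Ratios over TGFβ lay between -0.72 and -0.64 for IL-6/TGFβ. For IL-6/IL-23 they lay between -0.68 and -0.57, all short of 2-fold. Slc9a5 and Slc9a8 lie near the floor, and the Slc9a5 ratio with IL-6/TGFβ (-0.64) is a bound. A further Slc9a8 probe set was under the floor on 2 arrays and read 72.3 with IL-6/TGFβ, the opposite order.

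Among the remaining ion carriers, the potassium and chloride cotransporter Slc12a7 read 183, 218 and 306 (0.74 over TGFβ), though a further probe set gave 0.25. Slc12a2, the sodium, potassium and chloride cotransporter NKCC1, was level at 509.5, 471 and 477. Slc26a2, which takes up sulfate for sulfation of proteoglycans, read 203, 124 and 230 (0.89 for IL-6/TGFβ against IL-6/IL-23, and 0.61 in a further probe set). The phosphate carrier Slc20a1 read 1121, 1103 and 1011.

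**Figure D4:**
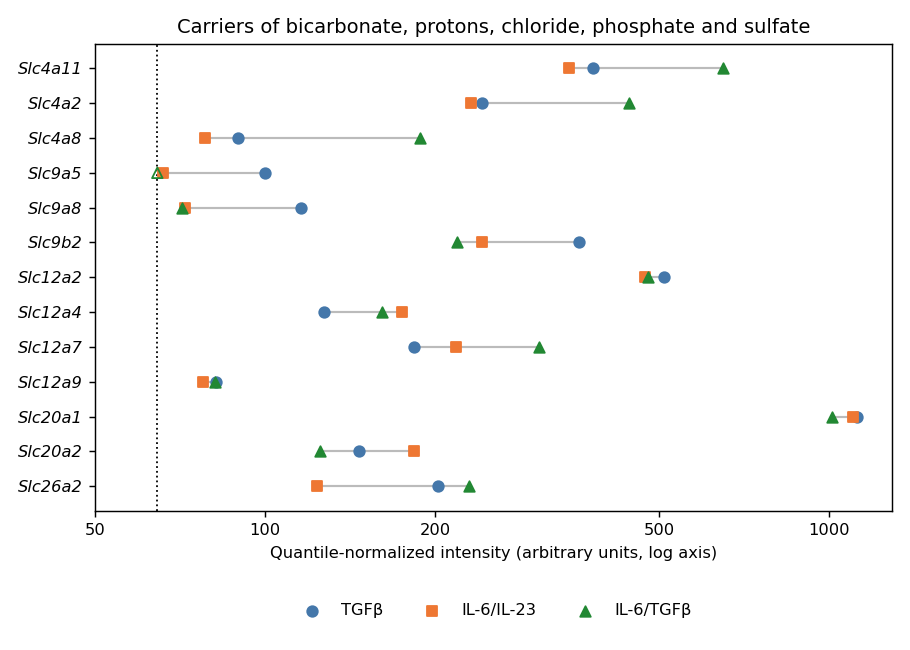
Quantile-normalized intensity (log axis) of the 13 inorganic ion carriers on each array, grouped by family, with the floor of 64.5 as a dotted line and an open symbol for a value under it. The IL-6/TGFβ point is the highest for Slc4a11 (648), Slc4a2 (442) and Slc4a8 (189), and the TGFβ point is the highest for the 3 Slc9 genes.

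Carriers for glycosylation stayed within 2-fold. Of 19 members, 18 of them in the Slc35 family, 0 were 2-fold apart in any comparison, beside 11.9% of all genes. With so few members this count is too small to set against that share. Slc35d3, an orphan relative (66.2, 138 and 12.5), fell outside the set only through the dimmer IL-6/IL-23 array, and by normalized intensity it would enter with ratios past 2-fold in 2 comparisons. Ratios for IL-6/TGFβ against IL-6/IL-23 were below 0 in 15 of 19 (21.1% above 0, beside 47.1% of all genes), with a median of -0.13 beside -0.03. Over TGFβ 13 of 19 were below 0 (31.6% above 0, beside 51.4% of all genes). The median was -0.23 beside 0.01, and relative to all genes this was -0.25 under each scaling. The CMP-sialic acid carrier Slc35a1 read 534, 529 and 485, and the UDP-N-acetylglucosamine carrier Slc35a3 read 1053, 972 and 1075. Slc35d1, which carries UDP-glucuronic acid, read 326, 323 and 213 (-0.61 over TGFβ). For the UDP-galactose carrier Slc35a2 the brightest probe set gave 0.98 for IL-6/TGFβ against IL-6/IL-23 and another gave -0.69, so the gene has no settled direction. Slc33a1, which carries acetyl-CoA into the endoplasmic reticulum, read 592, 303 and 428 (-0.96 for IL-6/IL-23 against TGFβ).

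Metal carriers other than those for zinc had 6 members, none 2-fold apart, too few to set against the 11.9% of all genes. Slc41a1, a magnesium carrier, read 350, 631 and 592, so both arrays with IL-6 were higher than TGFβ (0.85 and 0.76). The copper importer Slc31a1 read 324, 380 and 242 (-0.65 for IL-6/TGFβ against IL-6/IL-23, and -0.50 in its other probe set). Slc11a2 (DMT1), which imports iron from endosomes, read 166, 164 and 211. Slc66a2, outside these classes, read 83.5, 181 and 107 (1.12 for IL-6/IL-23 against TGFβ), and its further probe set read 49.7, 118 and 80.7. The adaptors named after carriers are not transporters. Of them Slc9a3r1, which encodes the scaffold NHERF1 and binds the cytoskeletal linker ezrin, read 1583, 1792 and 1886 (0.25 over TGFβ, and -0.33 and 0.36 in further probe sets), and Slc4a1ap read 322, 325 and 313.

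Other genes of solute transport were read for comparison. Among 31 solute carriers left out of the set at the same threshold, 1 was higher (3.23%) and 0 were lower for IL-6/TGFβ over TGFβ, beside 2.83% and 2.13% of all genes. Over IL-6/IL-23, 1 was higher and 1 lower (3.23% each, beside 4% and 3.43%). For IL-6/IL-23 against TGFβ 3 were higher (9.68%, beside 3.53%) and 1 lower (3.23%, beside 3.42%). These counts are too small to set against those shares. Slc39a8, an importer of zinc and manganese, read 415, 164 and 1248, and the glucose carrier Slc2a3 read 630, 2652 and 452. Their largest ratios were 2.92 for Slc39a8 and -2.55 for Slc2a3, both for IL-6/TGFβ against IL-6/IL-23. Of 6 measured ion pumps, Atp1b1, the beta subunit of the sodium pump, was the one that was 2-fold apart, at 1590, 226 and 527 (-2.82 for IL-6/IL-23 against TGFβ and -1.59 for IL-6/TGFβ over TGFβ). Among 14 carrier partners, the kinase Stk39 (SPAK), which regulates Slc12 cotransporters, read 1009, 389 and 286, and Emb, the partner protein of monocarboxylate carriers, read 1938, 5192 and 4747. Of 19 ABC transporters 0 were higher and 2 lower (10.5%, beside 2.13%) for IL-6/TGFβ over TGFβ, and the multidrug transporter Abcb1b read 753, 635 and 312 (-1.27). In the comparison against IL-6/IL-23, 1 ABC transporter was higher (5.26%, beside 4%) and 2 were lower (10.5%, beside 3.43%). Abcd3, which brings fatty acids into peroxisomes, read 687, 1544 and 537 (-1.52). For IL-6/IL-23 against TGFβ 1 ABC transporter was higher (5.26%, beside 3.53%) and 0 were lower. With 19 genes these counts are too small to set against those shares. Of the 14 partners, 1 was higher and 1 lower over TGFβ (7.14% each), and 1 was higher and 0 lower against IL-6/IL-23, counts too small to set against those shares. The latter was the membrane-cytoskeleton linker Rdx (radixin), at 2848, 1427 and 3178 (1.16).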

How the data were processed

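Biotin-labelled cRNA of 3 samples was hybridized to Affymetrix arrays, per the labels' protocols. The authors deposited an intensity on a linear scale for every probe set. How probes were summarized, scaled and background-corrected is not given in the sources used here. In all, 64 control probe sets among 45101 were dropped. The log2 intensities were quantile normalized (limma 3.58.1, R 4.3.3), which removes real differences in total mRNA. Genes came from GEO's platform annotation: 34945 probe sets had 1 symbol, 932 several and 9160 none. Each gene takes the values of its brightest probe set, by mean log2 intensity. The floor of 64.5 is the 95th percentile over 85 probe sets for 49 tissue-restricted genes. This list holds Mbp, which T cells also transcribe, and without it the floor is 46.6. Precision is limited by the number of arrays, 1 per condition. The calling step was tested on simulated data.

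The members, gene lists and tests were chosen with earlier results of these data known. Single families within a substrate class (Slc4, Slc9, Slc35, Slc38) were picked out after their values were seen. Genes named are those at least 2-fold apart, the 2 with the largest measured ratios per class, those next to the threshold, those with discordant probe sets and up to 4 per comparison list. Further members were named for their function after their values were seen.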

Additional observations from a re-analysis of the deposited data

How the results depend on the processing

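Results are counts of members higher and lower at 2-fold. They are 4 and 1 for IL-6/TGFβ over TGFβ, 6 and 4 for IL-6/TGFβ against IL-6/IL-23, and 3 and 4 for IL-6/IL-23 against TGFβ. The settings below are given in that order. No named ratio changed sign among those called. Median scaling gave 0 and 2 in the first comparison and a member median of -0.22 in the second, with Slc2a6 and Slc25a32 past 2-fold. Without scaling the counts were 0 and 10, 16 and 0, and 0 and 47, with medians of -0.46, 0.39 and -0.89, because the deposited arrays differ in brightness. Lowering the floor to the 90th percentile, or leaving Mbp out of its list, gave 2 lower in the first, with Slc2a6 added. The 99th percentile, a floor of 384, left 0 and 0, 2 and 0, and 0 higher in the third. Averaging a gene's probe sets gave 1 and 3, then 2 higher, then 1 higher. Membership at 200 gave 2 higher, 2 lower and 0 higher. A size rule of 1.5-fold gave 11 and 9, 11 and 17, and 13 and 13. Membership at a normalized intensity of 100 gave 6 and 5 in the second and 4 and 4 in the third, with Slc35d3 added to both. Membership at a mean deposited intensity of 100 gave 2 lower in the second and 1 higher in the third. The settings without Mbp and with membership by mean or normalized intensity were chosen after seeing the data. No paired analysis was possible because each condition has 1 array.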
